A study of Mus musculus with 4 samples.

Results

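Muscle contracts when calcium leaves the sarcoplasmic reticulum, an internal store, and relaxes when calcium is pumped back. The release channel Ryr1 opens on a signal from the membrane, and triadin links it to the calsequestrins, which hold calcium beside it. Junctophilins tie the store to the membrane, SERCA pumps refill the store, and sarcolipin and parvalbumin tune pumping and buffering. Myoblasts carry little of this machinery, and most of it is built as they become contractile myocytes. Described here are 10 genes of this machinery, Ryr1, Trdn, Casq1, Casq2, Jph1, Jph2, Atp2a1, Atp2a2, Sln and Pvalb, chosen by gene symbol and taken with every probe set that carries one of those symbols, which gave 10 of 12393 named genes and 19 of the 22626 probe sets analysed.

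The cells were C2C12, an established mouse myoblast line, brought to rest in G0 by 48 hours of suspension in semi-solid methyl cellulose after growth in serum-rich medium. In 2 samples purified Wnt3A, the secreted ligand that stabilises β-catenin, was present at 50 ng/ml, and 2 control samples had no Wnt3A by their treatment label. By the labels, no sample of growing, adherent or differentiated cells belongs to the comparison. Each difference is between cultures labelled G0, with and without Wnt3A. Each sample was hybridized to 1 Affymetrix array and is called a biological replicate, without a statement that cultures were started apart; p-values therefore measure only the spread between these arrays. Values are signals on a log2 scale, a difference is Wnt3A minus control, and ± gives the SD with n = 2 arrays a group. The number of arrays limits the precision.

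The arrays had median signals of 4.22 and 4.15 with Wnt3A and 4.19 and 4.20 in control, and every pair correlated at r of 0.968 to 0.989 over all probe sets. Axin2, a feedback gene used as a readout of β-catenin signalling, read 5.13 and 6.14 with Wnt3A on its brighter probe set. That probe set read 3.25 and 3.21 in control, so the Wnt3A label was matched by a higher reading on both arrays. The other Axin2 probe set, too dim to be tested, read 1.58 and 1.87 with Wnt3A and 1.55 and 1.78 in control. Muscle identity was visible in Des, the muscle intermediate filament gene, at 9.08 and 8.10 with Wnt3A and 8.73 and 8.92 in control. Myod1 read 6.32 and 3.62 with Wnt3A and 6.84 and 7.11 in control. The reading of 3.62 lay under the median signal of its array, 4.15. Of 16969 probe sets tested in limma, fitted on the group alone, 0 passed an adjusted p of 0.05 in either direction; 839, or 4.94%, had an unadjusted p under 0.05. The lowest adjusted p of any probe set was 0.142.

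The design asks of the calcium genes whether the channel complex, the junction proteins, the pumps and the cytosolic buffer differed with Wnt3A. Of the 19 probe sets, 15 had a mean signal of at least 2.01, the limit under which the dimmest 25% were left out, and were tested; they stand for 9 of the 10 genes. None passed in limma, with 0% of all tested probe sets called in either direction, and 3, all of Trdn, had an unadjusted p under 0.05. In 7 of the 15, both Wnt3A arrays lay below both control arrays, where 17.9% of all tested probe sets did; in 0 of the 15 both lay above, where 15.1% of all did. Those 7 belong to 4 genes, Trdn, Atp2a1, Casq2 and Ryr1, and 4 of them are probe sets of Trdn, which measure the same gene and are not independent. The difference was below 0 in 11 of the 15, where it was for 50.6% of all. The median difference of the 15 was -0.26, beside -0.0037 for all probe sets tested. Leaving out control replicate 2 gave a median of -0.04, and leaving out control replicate 1 gave -0.63. Control replicate 2 read above control replicate 1 in 12 of the 15, where it did in 9037 of all 16969. Without control replicate 2 the count of separated lower probe sets was also 7, where 31.8% of all tested probe sets were separated downwards under that easier rule. That count cannot fall when an array is left out, so its staying at 7 is no check.

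**Figure D1:**
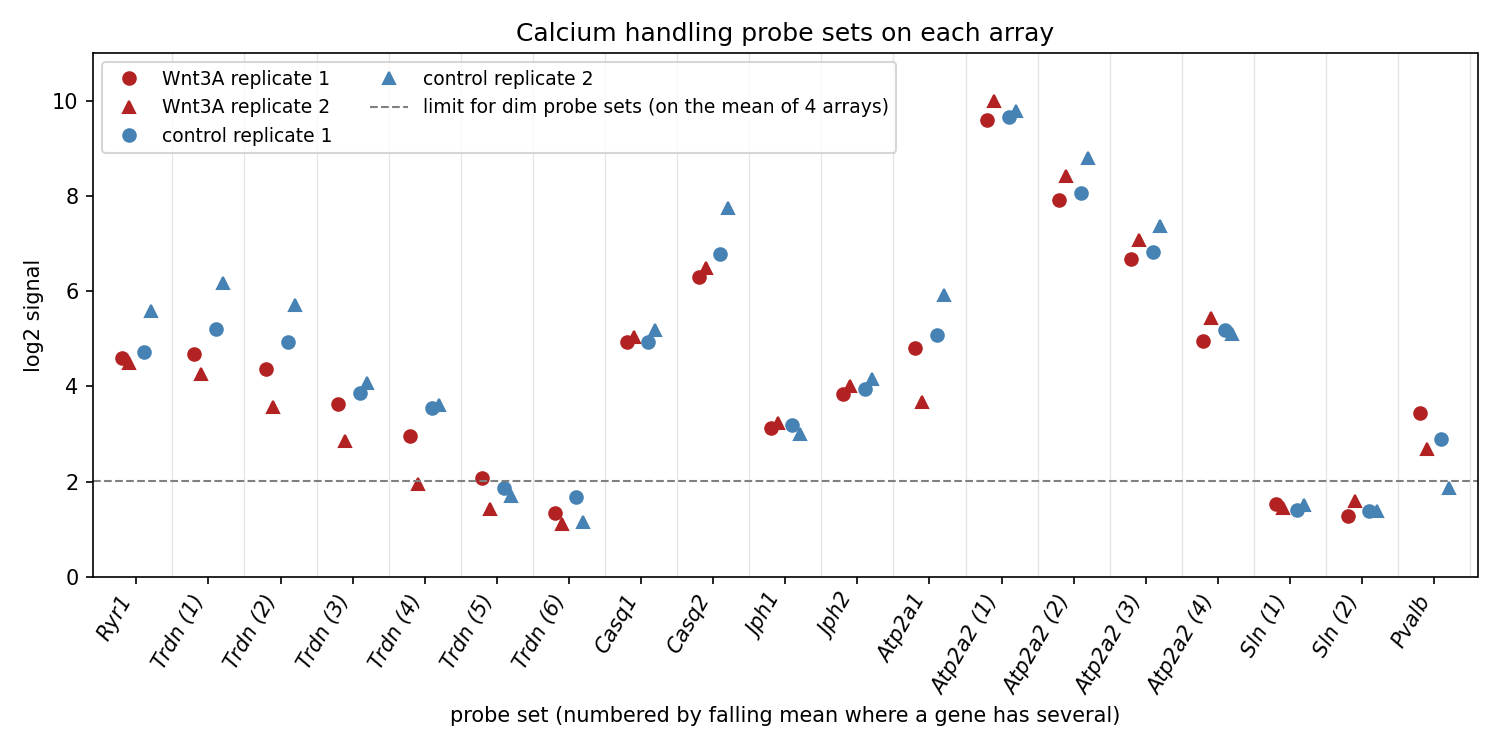
Log2 signal (y axis) of the 19 probe sets of the 10 calcium handling genes (x axis) on each array, with Wnt3A arrays in red to the left and control arrays in blue to the right, circles for replicate 1 and triangles for replicate 2; the dashed line is the limit of 2.01 for dim probe sets. For Ryr1, Casq2, Atp2a1 and the 4 brightest Trdn probe sets both red points lie under both blue ones, and for Atp2a2 the colours mix.

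The start regions of the genes with separated groups are shown because these are the members that lay lower together. RefSeq promoter sequences (GRCm38.p6), running from 250 bases before the annotated start through 50 bases from it, were held for 6 of the 10 genes, and for 3 of the 4 with separated groups. They are given 5′ to 3′ on the gene's own strand, with capitals on each match to the E-box letters CANNTG, the core bound by myogenic factors such as MyoD, and to the MEF2 motif, bound by the muscle factors of that family. The promoters are those of Casq2 at chr3:102086165-102086464 on the plus strand, of Atp2a1 at chr7:126463024-126463323 on the minus strand and of Ryr1 at chr7:29125102-29125401 on the minus strand.
Casq2: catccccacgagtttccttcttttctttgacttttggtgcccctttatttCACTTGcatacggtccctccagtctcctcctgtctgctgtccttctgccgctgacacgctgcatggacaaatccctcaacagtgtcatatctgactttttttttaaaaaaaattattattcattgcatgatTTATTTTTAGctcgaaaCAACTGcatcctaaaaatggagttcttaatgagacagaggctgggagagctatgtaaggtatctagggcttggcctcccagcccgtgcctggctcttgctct
Atp2a1: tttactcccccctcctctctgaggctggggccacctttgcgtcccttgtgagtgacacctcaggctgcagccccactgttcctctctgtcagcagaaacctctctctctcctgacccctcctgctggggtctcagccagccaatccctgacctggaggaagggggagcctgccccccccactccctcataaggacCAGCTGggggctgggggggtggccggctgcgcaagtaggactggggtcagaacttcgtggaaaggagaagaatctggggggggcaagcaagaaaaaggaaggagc
Ryr1: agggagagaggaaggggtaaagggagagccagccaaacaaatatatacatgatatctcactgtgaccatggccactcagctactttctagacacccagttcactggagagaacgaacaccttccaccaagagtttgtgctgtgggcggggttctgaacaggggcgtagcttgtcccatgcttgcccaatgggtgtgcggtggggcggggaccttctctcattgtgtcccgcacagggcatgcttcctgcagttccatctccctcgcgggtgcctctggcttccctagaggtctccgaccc

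Both strands were searched. The Casq2 window held an E-box beginning 200 bases before the start, a MEF2 match beginning 69 bases before it and a further E-box beginning 52 bases before it. The Atp2a1 window held 1 E-box, beginning 55 bases before the start, of the form CAGCTG, which MyoD is known to prefer and which is counted within CANNTG. The Ryr1 window held no match to either. Among the other members, Casq1 held CAGCTG beginning 195 bases before its start and a further E-box, CAGGTG, beginning 67 bases before it. Jph2 held CAGCTG in the windows of both its annotated starts, beginning 9 bases before 1 and 29 bases before the other. A MEF2 match began 180 bases before 1 start of Pvalb. The window of the other Pvalb start held E-boxes beginning 111 bases before it and at base 18 from it. E-boxes were thus not confined to the genes with separated groups. CANNTG was present in 72.3% of all 32851 promoter windows of the table, CAGCTG in 16.3% and the MEF2 motif in 3.19%. The letters CTTTGAT, a form of the site of the LEF/TCF partners of β-catenin, were in 3.73% of windows and in none of the member windows held. A match describes letters in these windows and no binding was measured.

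Both Wnt3A arrays read lower than both controls for the release channel and, by more, for triadin, although neither passed the test. Ryr1, the calcium release channel of skeletal muscle, read 4.60 and 4.48 with Wnt3A, against 4.72 and 5.58 in control. The groups did not overlap, but control replicate 1 lay close to the Wnt3A arrays and control replicate 2 stood alone at the top. The difference was -0.61 (SE 0.36), a signal 1.52-fold lower, with a 95% confidence interval from -1.54 to 0.32 and an adjusted p of 0.977 in limma. Leaving out control replicate 2 gave -0.18.

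Trdn encodes triadin, the membrane protein that links the channel to calsequestrin, and its 6 probe sets were designed on 3 different target sequences. The brightest, 1426143_at, read 4.68 and 4.26 with Wnt3A, against 5.21 and 6.16 in control, a difference of -1.22 (SE 0.40) and a signal 2.32-fold lower, with a 95% confidence interval from -2.26 to -0.17. Its Wnt3A mean was 4.47 ± 0.30 and its control mean 5.69 ± 0.67 (SD, n = 2 each). The widest difference of any member, -1.35 (SE 0.42), was that of 1426144_x_at, which read 4.36 and 3.57 with Wnt3A and 4.93 and 5.70 in control; the suffix x marks probes that may bind other transcripts too. On both probe sets the order of the arrays was the same, with Wnt3A replicate 2 lowest and control replicate 2 highest.

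The probe set 1426142_a_at read 2.96 and 1.95 with Wnt3A, against 3.55 and 3.61 in control, a difference of -1.13 (SE 0.37). Its control arrays stood 0.06 apart, so leaving out control replicate 2 gave -1.10, while leaving out Wnt3A replicate 2 gave -0.62. The probe set 1451801_at read 3.63 and 2.86 with Wnt3A, against 3.86 and 4.07 in control, a difference of -0.72. The remaining pair, 1426134_at and 1451940_x_at, lay under the limit for dim probe sets with differences of -0.20 and -0.02 and overlapping groups, and were not tested. Across the 4 tested Trdn probe sets the unadjusted p in limma was between 0.0249 and 0.0769 and the adjusted p between 0.895 and 0.977. Leaving out control replicate 2, the 4 differences were between -0.61 and -1.10.

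The calsequestrins, the proteins that store calcium inside the reticulum, came out unequally. Casq2, the form typical of heart and also made in young and slow skeletal muscle, read 6.29 and 6.49 with Wnt3A, against 6.78 and 7.74 in control. Both Wnt3A arrays lay below both controls, with means of 6.39 ± 0.14 with Wnt3A and 7.26 ± 0.67 in control (SD, n = 2 each). The difference was -0.87 (SE 0.37), a signal 1.83-fold lower, with a 95% confidence interval from -1.84 to 0.10 and an adjusted p of 0.977 in limma; leaving out control replicate 2 gave -0.39. Casq1, the fast skeletal form, read 4.94 and 5.03 with Wnt3A, against 4.94 and 5.18 in control. Its groups overlapped and its difference was -0.08 (SE 0.23) with a 95% confidence interval from -0.69 to 0.53. The change of Casq2 minus that of Casq1, taken within arrays so that a shift of a whole array cancels, was -0.79, and -0.49 and -1.10 within replicate numbers 1 and 2; the exact two-sided permutation p was 0.333, the smallest that 2 arrays against 2 allow. Casq2 was measured by an s-type probe set, whose probes may be shared by several transcripts.

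The junctophilins, which bridge the reticulum and the surface membrane, gave groups that overlapped. Jph1, the skeletal form, read 3.13 and 3.23 with Wnt3A, against 3.18 and 2.99 in control, a difference of 0.10 (SE 0.18) with a 95% confidence interval from -0.38 to 0.58. Jph2, found in heart and skeletal muscle, read 3.83 and 4.01 with Wnt3A, against 3.95 and 4.16 in control, a difference of -0.14 (SE 0.22) with a 95% confidence interval from -0.71 to 0.44. Neither interval reached a 2-fold difference in either direction.

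Of the SERCA pumps that return calcium to the reticulum, the fast muscle form was lower with Wnt3A and the form of slow muscle and non-muscle cells was not separated. Atp2a1, which encodes SERCA1, read 4.80 and 3.68 with Wnt3A, against 5.08 and 5.91 in control. Wnt3A replicate 2 stood lowest by a wide margin, and the replicate 1 arrays lay close together. The means were 4.24 ± 0.79 with Wnt3A and 5.50 ± 0.59 in control (SD, n = 2 each), a difference of -1.26 (SE 0.50) and a signal 2.39-fold lower. The 95% confidence interval ran from -2.57 to 0.05, and the adjusted p was 0.977 in limma. Leaving out control replicate 2 gave -0.84, and leaving out Wnt3A replicate 2 gave -0.70.

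Atp2a2, which encodes SERCA2, had 4 probe sets, all tested and all with overlapping groups. The brightest, 1427250_at, read 9.59 and 9.99 with Wnt3A, against 9.65 and 9.78 in control, a difference of 0.07 (SE 0.21) with a 95% confidence interval from -0.48 to 0.63. The other probe sets differed by -0.26, -0.21 and 0.06, and between the replicate 1 arrays all 4 gave values below 0, from -0.06 to -0.23. The change of Atp2a1 minus that of the brightest Atp2a2 probe set alone, again within arrays, was -1.33. It was -0.22 within replicate number 1 and -2.44 within replicate number 2, with an exact two-sided permutation p of 0.333, so the gap between the pumps came mostly from the replicate 2 arrays.

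Sln, the small membrane protein sarcolipin that uncouples SERCA from calcium transport, was at the floor of the signal range. Its probe sets read 1.53 and 1.45, and 1.28 and 1.60, with Wnt3A, against 1.41 and 1.51, and 1.39 and 1.39, in control. Both lay under the limit for dim probe sets on average, no array stood apart by more than 0.32 from the other of its group, and no test was made.

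Pvalb, the gene of the cytosolic calcium buffer parvalbumin of fast fibres, read higher with Wnt3A within each pair of arrays. Its signals were 3.45 and 2.68 with Wnt3A, against 2.89 and 1.87 in control, so the groups overlapped, while the differences within replicate numbers 1 and 2 were 0.56 and 0.82. The difference was 0.69 (SE 0.44) with a 95% confidence interval from -0.46 to 1.84 and an adjusted p of 0.977 in limma; leaving out control replicate 2 gave 0.18. Control replicate 2, the highest array for Ryr1, Casq2, Atp2a1 and the 4 tested Trdn probe sets, was the lowest for Pvalb, at a signal under the limit for dim probe sets.

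**Figure D2:**
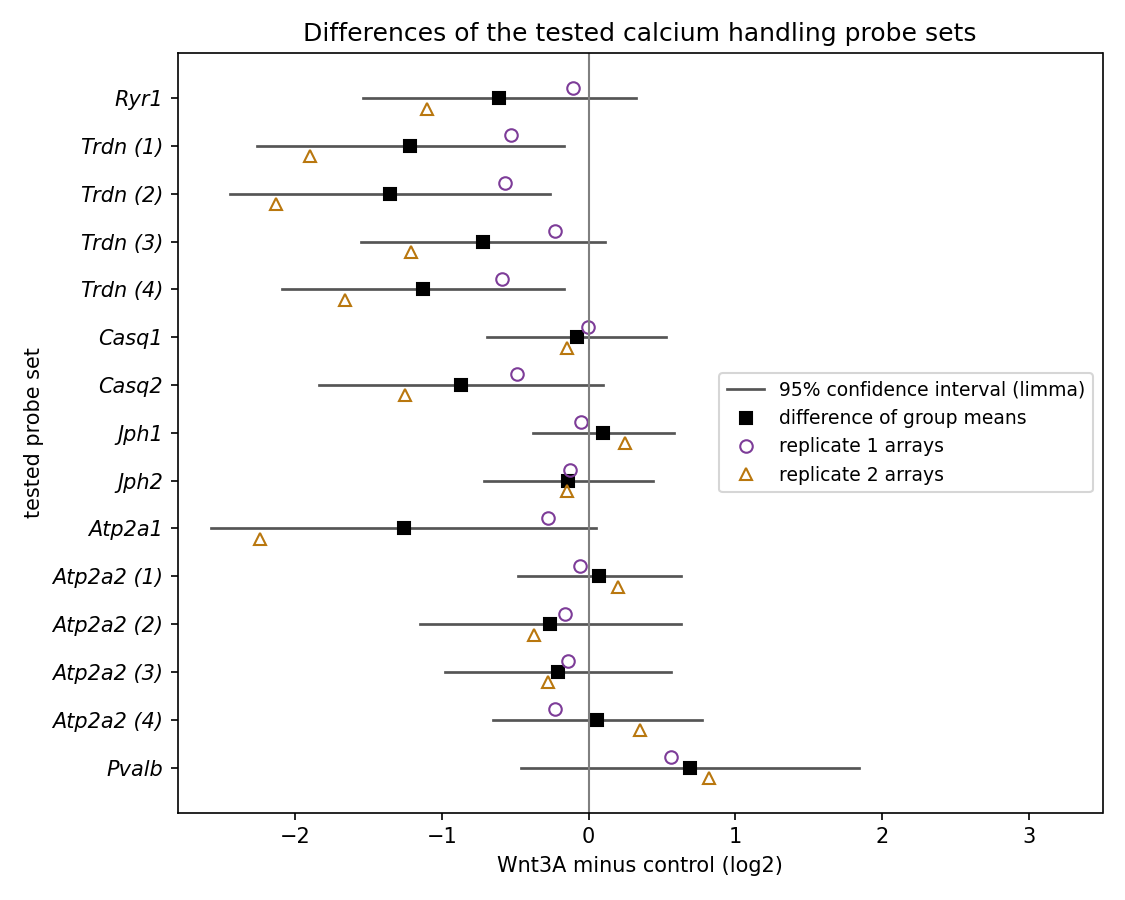
Wnt3A minus control on the log2 scale (x axis) for each of the 15 tested probe sets (y axis), with squares for the difference of group means, lines for the 95% confidence interval of limma, open circles for the replicate 1 arrays and open triangles for the replicate 2 arrays. The squares run from -1.35 for a Trdn probe set to 0.69 for Pvalb, and the triangles lie further out than the circles for Ryr1, Trdn, Casq2 and Atp2a1.

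The comparison within each replicate number set 1 Wnt3A array against 1 control array and has no replicate check. Between the replicate 1 arrays 14 of the 15 tested probe sets were lower with Wnt3A, where 8538 of all 16969 were. The median of the 15 was -0.16. Between the replicate 2 arrays 11 of the 15 were lower, where 8590 of all 16969 were, and the median of the 15 was -0.37. Both numbers gave a lower value in 11 of 15, where 29.3% of all tested probe sets did, and both a higher one in 1 of 15, Pvalb, where 28.2% of all did. With 1 probe set a gene, that of highest mean, 6 of the 9 tested genes were lower within both numbers, where 30.6% of all tested genes were. The sizes were unequal between the numbers. Atp2a1 differed by -0.28 in number 1 and -2.24 in number 2, the brightest Trdn probe set by -0.53 and -1.90, Casq2 by -0.49 and -1.25 and Ryr1 by -0.11 and -1.10. Casq1 differed by -0.0029 and -0.15 and Jph2 by -0.13 and -0.15.

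**Figure D3:**
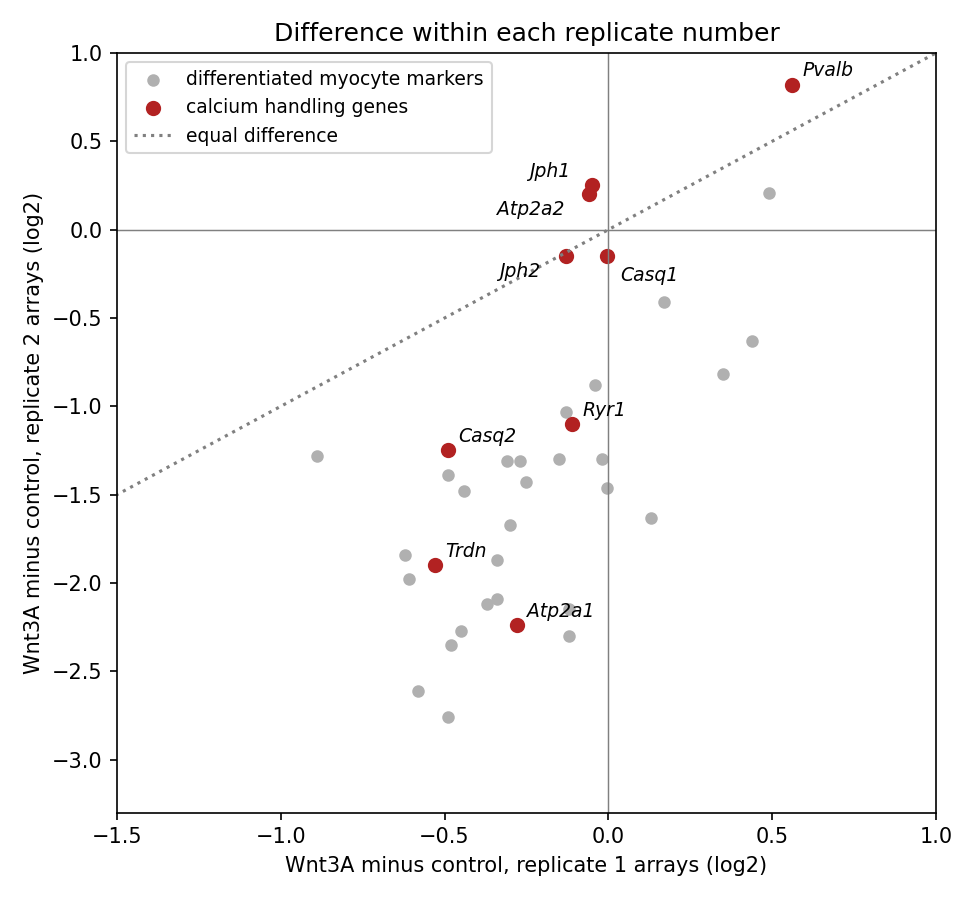
Wnt3A minus control (log2) between the replicate 1 arrays (x axis) and between the replicate 2 arrays (y axis), 1 point per gene, with the 9 tested calcium handling genes in red and the 28 tested markers of differentiated myocytes in grey; the dotted line marks equal differences. Atp2a1, Trdn, Casq2 and Ryr1 lie far below the line among the grey points, and Pvalb lies at the top right.

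Markers of contractile muscle cells read lower with Wnt3A too. Of 31 listed markers of differentiated myocytes 30 were on the array and 28 tested; 27 of these were lower with Wnt3A, where 52.8% of all tested genes were, 20 of them with both Wnt3A arrays below both controls, where 19.6% of all tested genes were, and none passed the test. The median difference was -0.95, or -0.49 with control replicate 2 left out, beside -0.14 for the 9 tested calcium handling genes taken 1 probe set each and -0.02 for all tested genes. Their signals, returned to the linear scale and summed, were 6644 and 5674 with Wnt3A, against 7958 and 16903 in control, so control replicate 2 stood apart in the same direction as for Ryr1, Trdn, Casq2 and Atp2a1. Myog, the factor that starts terminal differentiation, read 7.42 and 6.66 with Wnt3A, against 8.00 and 9.27 in control, a difference of -1.59 (SE 0.51, adjusted p = 0.919 in limma). Actn2, the Z-disc actinin, differed by -0.96, Myl1, a myosin light chain, by -0.94 and Ldb3, a Z-disc protein, by -1.09. In bulk RNA fewer myocytes and less of these transcripts per cell cannot be told apart, and the part of myocyte content in the differences of the calcium genes was not tested.

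The order of the arrays was shared as well. From lowest to highest it ran Wnt3A replicate 2, Wnt3A replicate 1, control replicate 1, control replicate 2 in Ryr1, Atp2a1 and the 4 tested Trdn probe sets, that is in 6 of 15, where 6.64% of all tested probe sets had it, and in 18 of the 28 myocyte markers, where 7.60% of all tested genes had it. Casq2 had the Wnt3A arrays in the other order. The 3′ minus 5′ signal of the Gapdh and β-actin control probe sets is a sign of RNA integrity. For Gapdh it was 0.16 and 0.16 with Wnt3A and 0.09 and 0.31 in control, highest on control replicate 2. For β-actin it was 0.80 and 0.89 with Wnt3A and 0.70 and 0.93 in control, higher on both replicate 2 arrays. The part of RNA integrity in the differences was not tested.

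Other genes of excitation-contraction coupling and of the reticulum were mostly not separated between the groups. Of 29 listed, 23 were on the array and 19 tested, with a median difference of -0.15 and none passing. That median turned to 0.07 when control replicate 2 was left out and to 0.01 when Wnt3A replicate 2 was, and it was -0.32 with Wnt3A replicate 1 left out. Both Wnt3A arrays lay below both controls in 1 and above in 4, where 19.6% of all tested genes lay below and 14.8% above. Cacna1s, the voltage sensor that opens Ryr1, read 3.23 and 3.35 with Wnt3A, against 3.23 and 5.08 in control, a difference of -0.87 (SE 0.63) that was 0.06 without control replicate 2. The reading of 5.08 thus stood alone. Selenon, a selenoprotein of the reticulum, was the 1 gene with separated lower values, at 5.61 and 5.15 with Wnt3A, against 6.02 and 5.89 in control. Ryr3, a minor channel form, read 4.50 and 3.15 with Wnt3A, against 3.91 and 4.57 in control. Ryr2, the cardiac channel, and Pln, the cardiac SERCA inhibitor phospholamban, lay under the limit for dim probe sets on all their probe sets' means, with differences of -0.34 and 0.15 on the brightest.

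The separated higher genes of that list, on their probe set of highest mean, were Asph, Stac, Sri and Fkbp1a. Asph is the locus of the reticulum proteins junctin and junctate and of a hydroxylase. It read 7.45 and 8.52 with Wnt3A, against 7.28 and 7.05 in control. The difference was 0.82 (SE 0.40), or 0.29 without Wnt3A replicate 2. Its other 4 probe sets differed by -0.62, -0.19, -0.12 and 0.14. Those at -0.62 and -0.19 had both Wnt3A arrays below both controls, the opposite direction. Stac, an adaptor of voltage-gated calcium channels, differed by 0.46 (SE 0.23), Sri, the calcium-binding protein sorcin, by 0.31 and Fkbp1a, the channel-binding immunophilin FKBP12, by 0.15. These 4 genes had an adjusted p of 0.977 each in limma on that probe set. The other tested Fkbp1a probe sets differed by 0.26, with separated groups, and by -0.24 and -0.02, with overlapping groups.

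Of 8 tested genes of T-tubules and their membrane platforms, the inward folds that carry the signal to Ryr1, the median difference was -0.31, with both Wnt3A arrays below both controls in 3 and above in 2, where 19.6% of all tested genes lay below and 14.8% above. Cav3, the muscle caveolin, read 4.11 and 4.29 with Wnt3A, against 4.58 and 6.17 in control, a difference of -1.17 (SE 0.56) that was -0.38 without control replicate 2. Ank1, which in muscle anchors the reticulum to the myofibril, differed by -0.98 (SE 0.39), Speg by -0.34 and Bin1, which shapes the tubules, by -0.36 with groups that overlapped. With control replicate 2 left out, the median of this list was -0.0013.

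Calcium entry and extrusion genes were spread around 0. Of 26 listed, 15 were on the array and 11 tested, with a median difference of 0.01 and 3 separated lower and 1 higher, or 27.3% and 9.09%, near the 19.6% and 14.8% of all tested genes. Slc8a1, the sodium-calcium exchanger NCX1 of the surface membrane, read 2.31 and 1.89 with Wnt3A, against 3.86 and 3.69 in control. It had the lowest unadjusted p of any calcium gene listed, with a difference of -1.67 (SE 0.22, unadjusted p = 0.000743, adjusted p = 0.445 in limma), and it was -1.75 without control replicate 2. Its Wnt3A signals stood near the limit for dim probe sets, and its other probe sets, both dim, differed by -0.24 and -0.09. Trpc1, a cation channel, differed by 0.69 with overlapping groups. The inositol trisphosphate receptors, release channels found in most cells, lay on either side, with Itpr2 at -0.44 and Itpr3 at 0.42.

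Among 18 tested genes of calmodulin-dependent signalling the median difference was 0.0020, with 5 separated lower and 1 higher, or 27.8% and 5.56%, beside 19.6% and 14.8% of all tested genes. Ppp3ca, the catalytic subunit of the calcium-dependent phosphatase calcineurin, read 8.65 and 8.38 with Wnt3A, against 9.36 and 9.23 in control, a difference of -0.78 (SE 0.20, unadjusted p = 0.0122, adjusted p = 0.789 in limma). Its other probe sets differed by -0.87 and -0.81, also with separated groups, and the difference was -0.85 without control replicate 2. Myoz2, a calcineurin-binding Z-disc protein, differed by -1.10 (SE 0.40), Rcan2, a calcineurin regulator, by -1.09 with overlapping groups, or -0.24 without Wnt3A replicate 2, and Camk2g by -0.38.

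**Figure D4:**
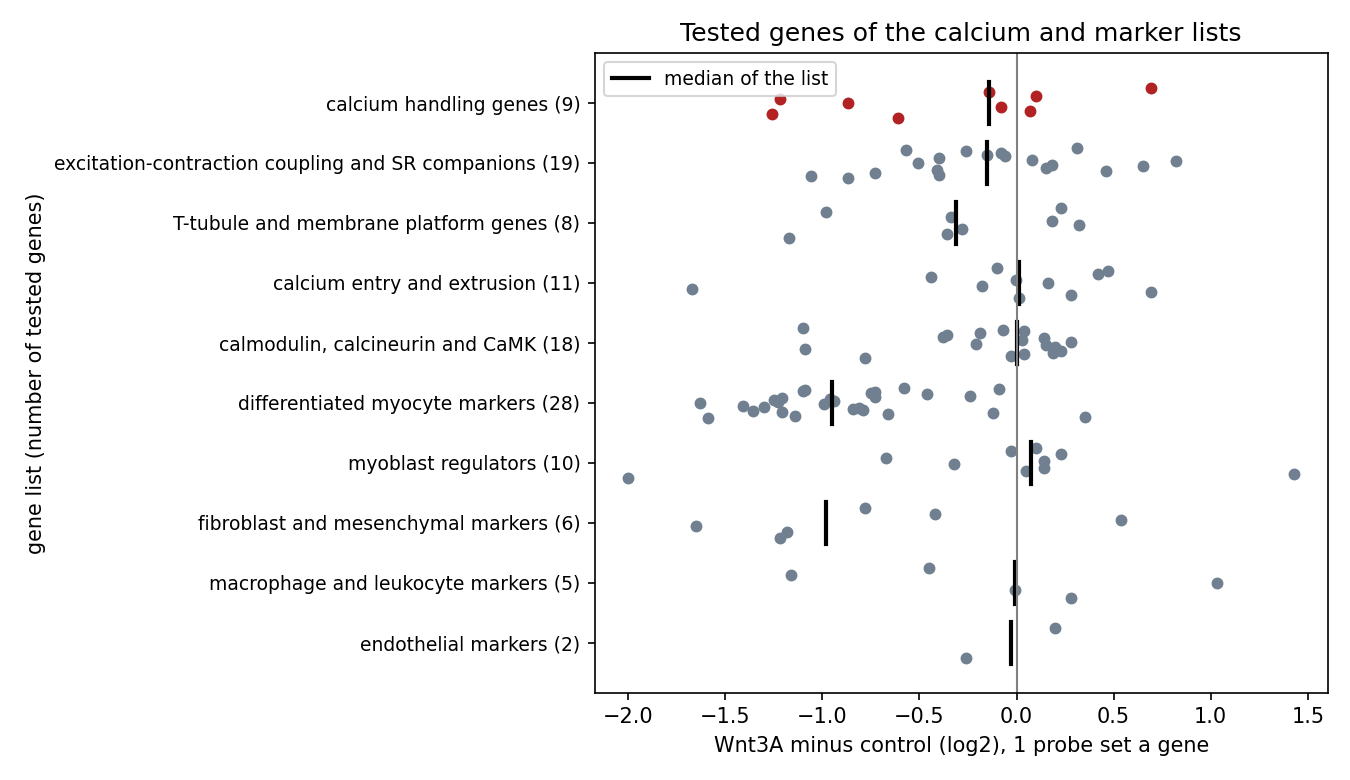
Wnt3A minus control (log2, x axis) for each tested gene of the calcium and marker lists (y axis, with the number tested), 1 probe set a gene; red points are the calcium handling genes and black bars the medians. The bar of the differentiated myocyte markers lies at -0.95 and that of the calcium handling genes at -0.14, with 4 red points at or below -0.61.

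Regulators of the muscle programme lay on both sides of 0. Of 10 tested myoblast regulators the median difference was 0.07, with Myf5 at 1.43 (SE 0.28), Myod1 at -2.00 (SE 0.90), Six4 at -0.67, Mef2c at -0.32 and Pax7 at 0.23; 0 passed. Leaving out Wnt3A replicate 2 gave -0.65 for Myod1 and -0.06 for Six4. Pax7 had a mean signal of 1.92 in control, under the limit for dim probe sets, and 2.15 with Wnt3A. It entered the test through its Wnt3A arrays, and its difference is between signals near that limit. Fibroblast and mesenchymal markers mostly read lower with Wnt3A. Of 9 listed 6 were tested and 5 had both Wnt3A arrays below both controls, where 19.6% of all tested genes did; none passed. The median difference was -0.98, or -0.42 over all 9 with no limit for dim probe sets, with summed linear signals of 5360 and 3686 with Wnt3A, against 6043 and 6366 in control. Thy1, Lum and Tcf21 of that list were under the limit for dim probe sets. Col1a2, a chain of type I collagen, was the brightest and made up most of the summed signal on each array. It read 12.24 and 11.69 with Wnt3A and 12.34 and 12.41 in control. Pdgfra differed by -1.22, or -0.52 without Wnt3A replicate 2, Dcn by -1.18 and Pi16 by -0.78. Col1a1, the 1 tested gene of the list that read higher, differed by 0.54 with overlapping groups. Leaving out control replicate 1 gave -0.36 for it, and its other probe set differed by -0.08. Fap read 1.79 and 1.38 with Wnt3A, both under the limit for dim probe sets, against 2.93 and 3.54 in control, and entered the test through its control arrays. The part of such cells or states in the calcium gene values was not tested. Of 8 macrophage and leukocyte markers 5 were tested, with a median of -0.01 that joins opposite values. Separated lower were 2 and higher 2, where 19.6% of all tested genes lay lower and 14.8% higher. Cd14, a receptor for bacterial lipopolysaccharide, read 6.16 and 6.46 with Wnt3A, against 7.54 and 7.40 in control, a difference of -1.16 (SE 0.23, adjusted p = 0.643 in limma), and Fcgr3 differed by -0.45. Cd68 differed by 0.28 and Csf1r by 1.03, or 0.20 without Wnt3A replicate 2. The other Csf1r probe sets differed by 1.29 and 0.14 with overlapping groups. The list had summed signals of 100 and 142 with Wnt3A, against 213 and 196 in control, mostly from Cd14. The defining gene Ptprc read 1.22 and 1.14 with Wnt3A and 1.27 and 1.19 in control, the floor of the range. Of 6 endothelial markers 2 were tested, Kdr at -0.26 and Cldn5 at 0.20, with summed signals of 9.74 and 9.48 with Wnt3A, against 11.1 and 8.72 in control, and Pecam1, Cdh5 and Tek under the limit for dim probe sets.

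Scaling the arrays to their hybridization controls moved the median difference of all tested probe sets to 0.32, and the members' median to 0.06. Under that scaling 5 of the 15 member probe sets kept separated lower values, where 4.17% of all tested probe sets had them: Atp2a1 at -0.94 and the 4 of Trdn at -0.40 to -1.03. Casq2 at -0.55 and Ryr1 at -0.29 then overlapped between groups. In 3 of the 15 both Wnt3A arrays then lay above both controls, where 41.1% of all tested probe sets did: Pvalb at 1.01, Jph1 at 0.418 and the brightest Atp2a2 probe set at 0.392.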

How the data were processed

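RNA of C2C12 cells was extracted with Trizol and labelled for Affymetrix arrays, per the labels' protocols. The deposited table holds a single value per probe set and array, read here as a log2 signal because the values run from 0.50 to 13.23; the sources used here give neither the base nor the normalization, centring or genome build. The submitters' processing notes mention GCOS and PLIER without versions. No detection calls were used, so dim probe sets were judged by signal alone.

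Control probe sets (64 of 22690) were left out. Names came from the platform annotation, updated by Entrez ID to RefSeq symbols (20351 of the 20380 probe sets with 1 symbol matched); 691 with several symbols and 1555 not listed were not named. Probe sets under the 25% quantile of the mean over the 4 arrays were left out. Differences were tested two-sided in R 4.3.3 with limma 3.58.1 (lmFit, eBayes with an intensity trend, 4.77 degrees of freedom) and Benjamini-Hochberg adjustment over the 16969 tested probe sets. The procedure was also run on simulated data, with noise drawn independently for each probe set and array. Same-numbered arrays deviated together in the real data, so that run is no check of the p-values given here. Gene lists use the probe set of highest mean. The members and lists were chosen with earlier results of these data known. Every probe set of the 10 genes is named, then up to 4 tested genes of lowest p in each list and Myog, Myod1, Mef2c, Cacna1s, Ryr2, Ryr3, Pln and Axin2 in any case; other list genes printed were chosen after their values were seen. Paralog pairs, each gene by its probe set of highest mean, were compared by exact permutation in scipy 1.17.1. Alternatives covered scaling, dim limits, probe set choice, moderation, a replicate block and each array left out.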

Additional observations from a re-analysis of the deposited data

How the results depend on the processing

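No member passed in limma under any alternative fit, and the count over all probe sets was 0 in each but 2 of them: the replicate block gave 83 called probe sets and scaling to hybridization controls gave 68, with none of the members among either. The block is a description, since the labels do not say that a replicate number marks a shared culture or day; deviations of same-numbered arrays correlated at 0.518 over the tested probe sets, and the lowest adjusted p of a member with the block was 0.209 in limma, for Trdn. Scaling to hybridization controls reversed the members' median to 0.06, Casq1 to 0.24 and Jph2 to 0.18, as it shifted all probe sets by 0.32. The mean over the probe sets of a gene reversed Atp2a2 to -0.09. The members' median was -0.63 to -0.04 over the 4 fits that each left out 1 array. The separated lower count, 7 of 15, was 4 of 9 genes with 1 probe set a gene or their mean, beside 19.6% of all tested genes with 1 probe set each, since Trdn then counts once. With 1 array left out, an alternative chosen after seeing the data, it ran from 7 to 13, where 31.8% to 37.2% of all probe sets were separated downwards. Such a count cannot fall when an array is left out. In those fits Casq1 ran from -0.20 to 0.04 and Atp2a2 from -0.13 to 0.27; the cause was not tested. Quantile normalization, median centring and the other dim limits kept the members' median between -0.44 and -0.20. Signals near 2.01 limit what can be said of Sln, Pvalb and Slc8a1.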
